A study of Drosophila melanogaster with 6 samples.

Results

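Antimicrobial peptides and the proteins that sense bacterial and fungal cell walls were examined in RNA-seq of adult Drosophila melanogaster heads. Members were the rows of the deposited gene table named after a list of 35 antimicrobial peptide, immune-induced (IM) peptide, peptidoglycan recognition (PGRP) and Gram-negative binding protein (GNBP) genes, together with every further row whose name begins with PGRP-. There were 34 such rows among the 13541 genes of the table, 32 found by name and 2 (PGRP-LD and PGRP-SB2) by the prefix. Dpt, IM10 and IM18 have no row under those names. The gene for Dpt is listed under its current symbol DptA, and the precursors of IM10 as CG33470 and IMPPP, per the RefSeq synonyms. Their values are given beside the members and are not counted with them.

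The study compared 2 genotypes with 3 samples each, adult heads of flies labelled miR-210 mutant (line M22-3) and adult heads of w1118, a white-eyed laboratory strain, labelled as control. The labels give no age, sex, mutant allele or infection, and no statement of whether the samples of a group came from separate sets of flies, so a p-value here reflects how far these samples varied, possibly for technical reasons. No row for mir-210 itself was found in the table. The table gives a mean per group, in read counts divided by a size factor for each library (normalized count), with the authors' log2 fold change and adjusted p, and a gene was called at an adjusted p under 0.05. Whole reads of the single libraries were recovered from these means for all 34 members. They have no replicate number and are called deepest, middle and shallowest within their group.

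Fly antimicrobial peptides are short secreted peptides made mainly by the fat body, a liver-like tissue that also fills part of the head, and by barrier epithelia and blood cells. Their genes are switched on through the NF-kappaB pathways Imd and Toll. PGRP-LC and PGRP-LE sense the peptidoglycan of mainly Gram-negative bacteria and start Imd signalling, which ends in the transcription factor Relish. PGRP-SA, GNBP1 and GNBP3 sense Gram-positive bacteria or fungi upstream of Toll, which ends in Dif and Dorsal.

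The recovered libraries held from 6257409 to 16462836 reads in recovered genes. The deepest library of each group was its lowest for the attacins, cecropins, DptB, Dro and edin. By group medians it stood less apart for the PGRP and GNBP genes. Head markers were present, with authors' means for the photoreceptor opsin ninaE of 185443 (mutant) and 590062 (control), and about equal means of 1165 and 1103 for the glial gene repo. Of 5 head markers tested 2 were called lower in the mutant, beside 1.89% of all tested genes. These were ninaE (log2 fold change -1.67) and the photoreceptor channel gene trp (-1.08) from the authors' deposited table, while repo, elav and Orco were not called. The neuronal gene elav ranged from 228 to 1554 in the mutant libraries against 487 to 2275 in the control libraries, highest in the deepest library of each group. Ovary and testis markers were near 0, with summed normalized counts of at most 7.44 in any library.

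Of the 34 members 5 were called between the genotypes, and the rest did not pass the authors' test. PGRP-LA, IM23 and IM4 were higher in the mutant and edin and IM2 were lower by the calls of the authors' deposited table. These 3 higher and 2 lower genes of 34 tested compare with 4.46% of 11155 tested genes called in either direction, 2.56% higher and 1.89% lower. The median log2 fold change was -0.32 over the members and -0.04 over all tested genes, with 24 of 34 members and 6051 of 11155 tested genes below 0. In limma on the recovered libraries the members' median was 0.06 without the deepest mutant library and also 0.06 without the middle control library, so its direction rests on those libraries. Mutant and control libraries did not overlap for 6 of 34 members, against 18.3% of the 10783 tested genes recovered, so the share of members is about that of all genes.

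**Figure D1:**
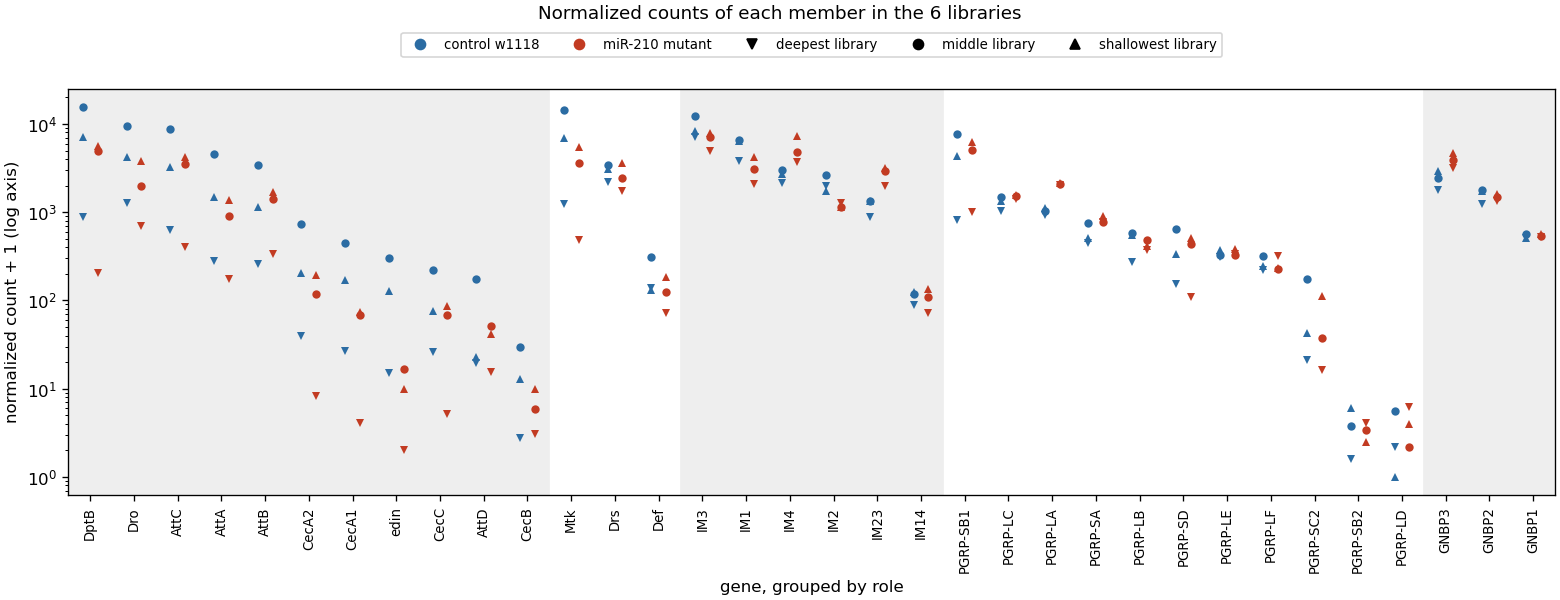
Normalized count plus 1 (log axis) of each of the 34 members in the 3 control libraries (blue) and 3 mutant libraries (red), with marker shape giving the library by depth. Attacins, cecropins, DptB and Mtk were lowest in the deepest library (downward triangle) of both groups, while PGRP-LA lay between 924 and 1117 in the control and between 2021 and 2148 in the mutant.

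Antibacterial effectors varied widely between libraries of one group. The attacins (AttA to AttD), the cecropins (CecA1, CecA2, CecB and CecC), DptB, drosocin (Dro) and edin formed a set of 11 genes, most of them known as targets of the Imd pathway. The set is named for its attacins, cecropins, DptB and Dro, and edin is counted with them only as a gene induced by infection. All 11 had log2 fold changes below 0, with a median of -1.21, beside 6051 of 11155 tested genes below 0. But 1 of the 11 (edin) was called lower and 0 were called higher, beside 1.89% and 2.56% of all tested genes. The attacins, cecropins, DptB and Dro were not called. In limma on the recovered libraries 6 of the 11 were below 0 without the deepest mutant library (median -0.15) and 8 without the middle control library (-0.41). The median was -2.05 without the deepest control library and -1.65 without the shallowest mutant library. DptB, a diptericin active against Gram-negative bacteria, had normalized counts of 205, 4956 and 5579 in the deepest, middle and shallowest mutant libraries against 871, 15545 and 7201 in the control libraries. The mutant values lay within or below the control range, and the groups overlapped (log2 fold change -1.14, adjusted p = 0.908 from the authors' deposited table).

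Drosocin, a proline-rich antibacterial peptide, had 703, 1986 and 3795 in the mutant libraries against 1257, 9510 and 4267 in the control libraries (log2 fold change -1.21, adjusted p = 0.617 from the authors' deposited table). AttC, a glycine-rich attacin, had 399, 3503 and 4228 against 622, 8865 and 3250 (log2 fold change -0.65, adjusted p = 0.928 from the authors' deposited table). In both genes the middle control library was highest and the shallowest mutant library exceeded the lowest control library several times over. AttA and AttB, which lie side by side on 2R next to Dro and encode near-identical proteins, had authors' means of 818 and 1156 in the mutant and 2111 and 1602 in the control. Reads of such close copies may be shared between them, so their separate levels are uncertain.

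AttD, the fourth attacin, and the 4 cecropins were at lower levels. The cecropins, helical peptides that disrupt bacterial membranes, lie together on 3R from 30210874 to 30216938 (dm6). CecA1 had 3.08, 67.8 and 72.9 normalized counts in the mutant libraries against 25.5, 446 and 168 in the control libraries. These come from 3, 56 and 49 reads in the mutant and 44, 479 and 169 in the control. The middle and shallowest mutant libraries lay above the deepest control library, and the difference was not called (log2 fold change -2.16, adjusted p = 0.381 from the authors' deposited table). limma called CecA1 lower with a term for the deepest libraries (adjusted p = 0.00347) and with those libraries left out (0.0497). In these settings 16.0% and 7.58% of all genes were called, and the term groups libraries by rank of depth within each genotype, which no label supports. CecA2 had 7.19, 119 and 193 against 38.3, 742 and 206, and CecC had 4.11, 67.8 and 86.3 against 25.0, 220 and 74.7. Their log2 fold changes were -1.63 and -1.02 from the authors' deposited table, and neither was called. CecB, with at most 31 reads in any library, had authors' means of 5.27 and 14.2, and AttD had 35.1 and 71.8. DptA, the diptericin not counted with the members, followed the same order of libraries, with 92.5, 1106 and 1665 in the mutant and 548, 6874 and 2419 in the control (log2 fold change -1.78, adjusted p = 0.732 from the authors' deposited table).

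edin, a small secreted peptide gene induced by infection, had the most negative log2 fold change of the members. It was at 1.03, 15.7 and 8.93 normalized counts in the deepest, middle and shallowest mutant libraries against 13.9, 300.4 and 129 in the control libraries. These were 1, 13 and 6 reads in the mutant and 24, 323 and 129 in the control. The groups overlapped, since the middle mutant library exceeded the deepest control library. Its authors' mean was 8.56 against 148, 17.2-fold lower in the mutant, with a log2 fold change of -4.12 (adjusted p = 0.0039 from the authors' deposited table). The control mean was 71.2 without the middle control library and the mutant mean 4.98 without the middle mutant library. The gene (3L, 17494880 to 17495300, plus strand) lies within the annotated span of Oatp74D on the same strand, so its reads may not be fully separable. In all, 9 members overlapped another annotated gene, on the same strand for edin, Mtk, PGRP-SD and PGRP-LD. limma on the recovered libraries did not call edin (adjusted p = 0.333). With a term for the deepest libraries its adjusted p was 3.3e-04, and with those libraries left out 0.0021, settings in which 16.0% and 7.58% of all genes were called.

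Metchnikowin (Mtk), drosomycin (Drs) and defensin (Def) act against fungi or Gram-positive bacteria, and Drs is the classical Toll readout. None of the 3 was called. Mtk varied like the antibacterial effectors, with 480, 3583 and 5478 in the mutant libraries against 1248, 14562 and 6893 in the control libraries (log2 fold change -1.25, adjusted p = 0.733 from the authors' deposited table). Drs stayed within a narrower range, at 1757, 2418 and 3633 against 2207, 3407 and 3109, and its groups overlapped almost fully (log2 fold change -0.16, adjusted p = 0.956 from the authors' deposited table). Def had 71.9, 125 and 182 against 136, 310 and 130. Per kilobase of the deposited gene length, Mtk had the highest control level of all members, at 28238 normalized counts per kilobase, before DptB at 17533, the IM peptide genes IM1 at 15406 and IM3 at 12001, and Drs at 7513. The control libraries of Mtk and DptB spread widely enough that this order is not resolved. Mtk also overlaps the annotated gene Stacl on the same strand, so its reads may not be fully separable.

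**Figure D2:**
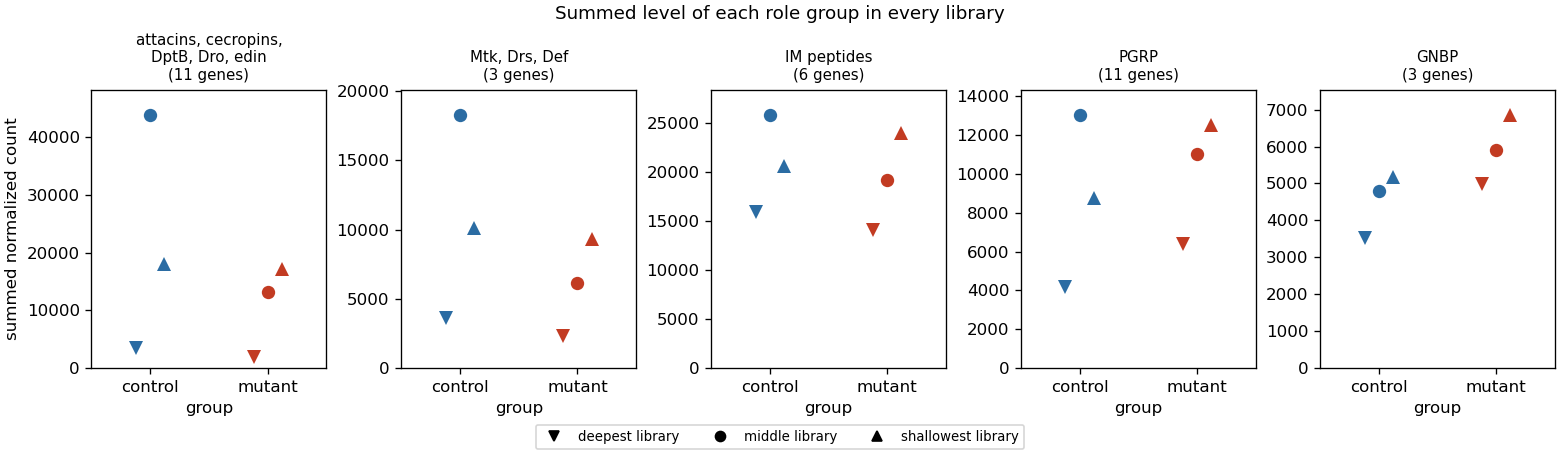
Summed normalized counts of each group of members in every library, on linear axes that start at 0, with marker shape giving the library by depth. The 11 antibacterial effectors summed to 3405, 43821 and 17950 in the deepest, middle and shallowest control libraries and to 1852, 13087 and 17107 in the mutant libraries, while the 3 GNBP genes stayed between 3522 and 6851.

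By group medians, variation between libraries of one genotype was larger for these effectors than for the genes that sense microbes. The highest library exceeded the lowest by a median of 16.6-fold in the control and 10.6-fold in the mutant over the 11 antibacterial effectors. Over the 14 PGRP and GNBP genes the medians were 1.64-fold and 1.35-fold, and over all tested genes recovered 1.51-fold and 1.54-fold. For all 11 effectors the deepest library was the lowest of its group in both genotypes, against 33% of all tested genes recovered, and the middle control library was the highest control library, against 28.8%. These genes share the libraries, so their common order is one observation and not 11. The median difference between the deepest and the other libraries was -3.12 on the log2 scale for the effectors, -0.57 for the IM peptides and -0.33 for the PGRP and GNBP genes. The effectors' median log2 difference of mutant from control was -0.84 in the deepest libraries and -1.21 in the other 4, on the log2(normalized count + 1) scale.

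**Figure D3:**
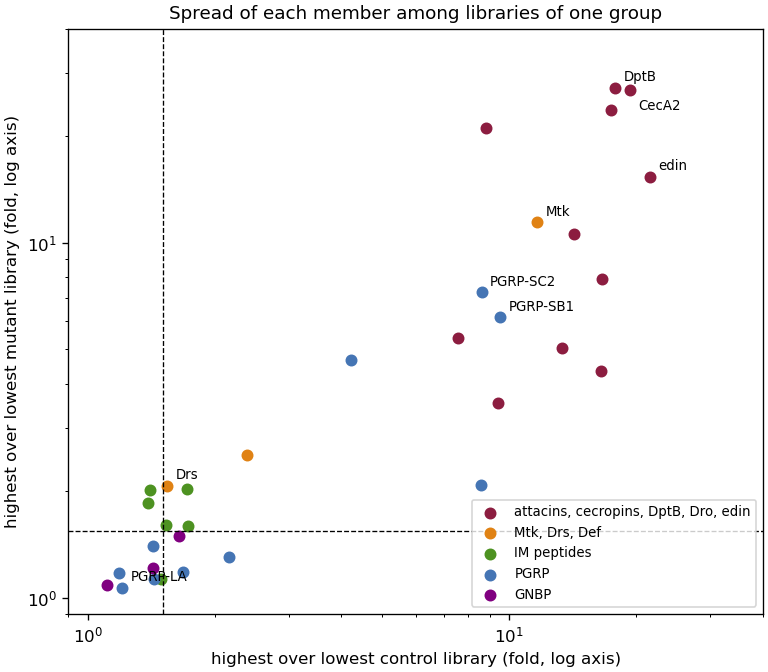
Highest over lowest library within the control (horizontal, log axis) and within the mutant (vertical, log axis) for each member, coloured by group, with the medians of all tested genes as dashed lines. Antibacterial effectors and Mtk lie at the upper right and most PGRP, GNBP and IM genes near the dashed lines; PGRP-LD is left out because 1 control library is at 0.

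Other tissues that make these peptides differed in part between the groups. Of 12 fat body markers tested 5 were called higher in the mutant (Lsp2, Lsp1beta, Obp99a, Yp2 and Yp3) and 0 lower, beside 2.56% and 1.89% of all tested genes. The other 7 were not called, and 3 of them had negative log2 fold changes, Fbp2 of -3.30, Lsp1alpha of -2.77 and Fbp1 of -1.57 from the authors' deposited table. Yp2 and Yp3 are yolk protein genes, and the labels give no sex, so a part of sex in their levels was not tested. Over the 8 markers recovered the summed level was 6439 to 16760 in the mutant libraries against 649 to 1895 in the control libraries, most of it from Obp99a and Lsp1beta. This sum leaves out Yp1, Yp2, Yp3 and apolpp, whose means lay above the search limit of 10000. They were far more abundant, with authors' means for Yp3 of 1256022 (mutant) and 561478 (control). Their authors' means differed less, by 1.88-, 2.00-, 2.24- and 1.82-fold, so the sum does not give the size of a fat body difference. Blood cell (hemocyte) markers summed to 14808 to 18435 against 13924 to 15482, with 1 of 8 called lower, the phagocytosis receptor gene NimC1. The median log2 fold change of the 8 was 0.21. Hml was not called but was higher in every mutant library than in any control library (0.67, adjusted p = 0.0744 from the authors' deposited table). Gut markers had 1 of 6 tested called higher, Amy-d, while Amy-p was not called (log2 fold change 1.77, adjusted p = 0.329 from the authors' deposited table). They summed to 583, 561 and 2782 in the deepest, middle and shallowest mutant libraries against 228, 595 and 264 in the control libraries. Only the shallowest mutant library exceeded the control range. The hemocyte and gut counts stand beside the same 2.56% higher and 1.89% lower of all tested genes. In each of these lists 0 of the recovered markers were at 0 in all libraries. Their part in the levels of the immune genes was not tested. In RNA from whole heads, fewer cells of a type and less RNA per cell cannot be told apart.

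IM peptides appear in the blood of infected flies and depend largely on Toll. Of the 6 IM genes 2 were called higher and 1 lower, beside 4.46% of all tested genes called in either direction. IM1, IM2, IM3 and IM23 belong to the Bomanin family (BomS1, BomS2, BomS3 and BomBc1), short peptides needed for Toll-dependent resistance, and IM4 and IM14 are the Daisho peptides Dso1 and Dso2, active against fungi. IM23 had 1989, 2919 and 3187 normalized counts in the deepest, middle and shallowest mutant libraries against 873, 1328 and 1337 in the control libraries. All mutant libraries lay above all control libraries, at means of 2698 ± 629 and 1179 ± 266 (SD, n = 3 libraries). The log2 fold change was 1.19 (adjusted p = 0.00317 from the authors' deposited table). In limma on the recovered libraries IM23 was not called (adjusted p = 0.13), nor with any 1 library left out (0.0881 to 0.44). These fits called few genes of any kind, 0.992% on all libraries and only 23 to 75 genes with 1 left out.

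IM4 had 3683, 4841 and 7392 in the mutant libraries against 2148, 3016 and 2726 in the control libraries. The groups did not overlap, and the mutant libraries were the more spread (5305 ± 1897 against 2630 ± 442, SD, n = 3 libraries). Its log2 fold change was 1.01 (adjusted p = 0.0468 from the authors' deposited table, close to the threshold). The limma adjusted p was 0.246, and 0.13 to 0.571 with 1 library left out, so the call was lost there. With 1 library left out only 23 to 75 of all genes were called, and the log2 fold change of IM4 stayed at 0.70 to 1.20. IM14, the other Daisho gene and its neighbour on 2R, had 71.9, 109 and 132 against 88.8, 117 and 124, a log2 fold change of -0.08 (adjusted p = 0.983 from the authors' deposited table).

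IM2 moved the other way from IM23. It had 1277, 1135 and 1143 in the mutant libraries against 1967, 2617 and 1749 in the control libraries, again without overlap (1185 ± 80.1 against 2111 ± 452, SD, n = 3 libraries). The log2 fold change was -0.83 (adjusted p = 0.0111 from the authors' deposited table). It too was not called by limma, at an adjusted p of 0.158 on all libraries and 0.18 to 0.505 with 1 left out, where only 23 to 75 of all genes were called. IM1 had almost the same fold change, -0.83, but its libraries overlapped, with 2066, 3109 and 4184 against 3781, 6524 and 6381 (adjusted p = 0.262 from the authors' deposited table). limma called IM1 lower with a term for the deepest libraries (adjusted p = 0.00106) and with those libraries left out (0.0154). In these settings 16.0% and 7.58% of all genes were called. IM3 had 4991, 7098 and 7949 against 7081, 12249 and 8358 (log2 fold change -0.47, adjusted p = 0.687 from the authors' deposited table), and limma with the term gave it an adjusted p of 0.0481. Unlike the antibacterial effectors, these genes differed by at most 2.03-fold between libraries of one group.

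Genes beside IM23, IM1, IM2 and IM3 were then read from the table, a set chosen after values had been seen. On 2R from 18381393 to 18390629 (dm6), 10 Bomanin genes lie within 9.24 kb, and 2 more lie on 3R. Of these 12 genes 2 were called higher, IM23 and CG18107 (BomS4), 1 was called lower, IM2, and 9 were not called, with a median log2 fold change of -0.16. Over all tested genes 2.56% were called higher and 1.89% lower. Libraries did not overlap for 5 of the 10 genes on 2R, against 18.3% of all genes, among them CG16836 (BomT2, log2 fold change 0.60) and CG15065 (BomS5, -0.54), which the authors' deposited table did not call. CG18107 had 359, 640.1 and 725 in the mutant libraries against 139, 153 and 184 in the control libraries. No library overlapped, and the log2 fold change was 1.85 (adjusted p = 4.5e-06 from the authors' deposited table). limma on the recovered libraries gave it an adjusted p of 0.0505, just outside the threshold. CG18107 shares 88 bases with CG15067 (BomBc2) on the opposite strand, which was not called (log2 fold change -0.17, adjusted p = 0.947 from the authors' deposited table). The strandedness of the counting is not given in the sources used here, and short Bomanin genes resemble each other, so reads may be assigned to a neighbour or relative.

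**Figure D4:**
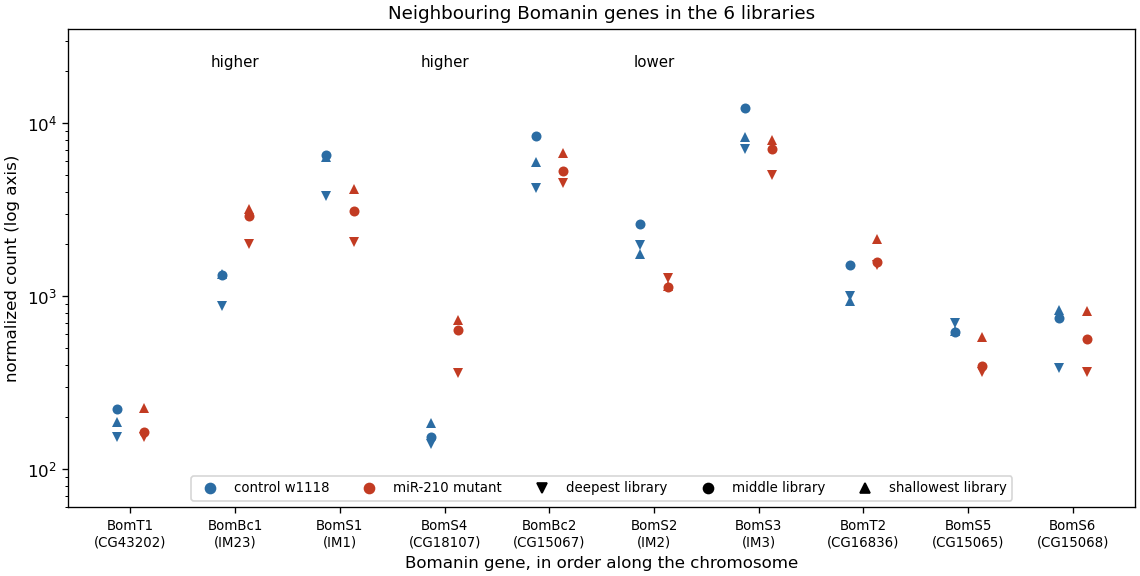
Normalized counts (log axis) of the 10 neighbouring Bomanin genes on 2R, in chromosomal order, in the 3 control (blue) and 3 mutant (red) libraries; called genes are marked higher or lower. BomBc1 (IM23) and BomS4 (CG18107) lie above the control in every mutant library and BomS2 (IM2) below it, while 7 genes between and beside them were not called.

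CG33470 and IMPPP, the rows for the precursor of IM10 (Baramicin A), had authors' means of 755 and 63.1 in the mutant and 970.4 and 82.4 in the control, and neither was called. CR44404, a short infection-induced gene whose current symbol is IBIN, was chosen after its values were seen. It had 4.11, 6.05 and 17.9 in the mutant libraries against 18.0, 133 and 32.9 in the control libraries. The groups were separated by the small gap between 17.9 and 18.0, and the log2 fold change was -2.74 (adjusted p = 0.0469 from the authors' deposited table). limma on the recovered libraries did not call it (adjusted p = 0.339). Its control mean is 61.3 and becomes 25.4 without the middle control library, and its mutant mean of 9.34 becomes 5.08 without the shallowest mutant library.

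Among the sensors, PGRP-LA had the smallest adjusted p of all members. PGRP-LA is a membrane-type PGRP that is predicted not to bind peptidoglycan and is reported as a positive regulator of Imd signalling in barrier epithelia. It had 2021, 2087 and 2148 normalized counts in the mutant libraries against 924, 1024 and 1117 in the control libraries. The mutant mean of 2086 ± 63.5 and the control mean of 1022 ± 96.3 (SD, n = 3 libraries) differed 2.04-fold. The log2 fold change was 1.03 (adjusted p = 3.8e-08 from the authors' deposited table). Mutant and control differed by 1.13 (log2) in the deepest libraries and by 0.98 in the other 4. It was the one member that limma on the recovered libraries called (adjusted p = 0.0344), where 0.992% of 11596 genes were called. That call was lost with equal totals (adjusted p = 0.0548) and with any 1 library left out (0.0658 to 0.213). Fits with 1 library left out called only 23 to 75 of all genes.

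PGRP-LA (3L, 9334332 to 9338336, dm6) is followed on the same strand by PGRP-LC after 473 bases and by PGRP-LF after a further 1272 bases, and neither neighbour was called. PGRP-LC, the main membrane receptor of the Imd pathway, had 1400, 1509 and 1583 in the mutant libraries against 1038, 1494 and 1345 in the control libraries (log2 fold change 0.21, adjusted p = 0.873 from the authors' deposited table). PGRP-LF, which inhibits PGRP-LC, had 318, 227 and 231 against 219, 314 and 242 (log2 fold change 0.00, adjusted p = 0.998 from the authors' deposited table). Their groups overlapped, unlike those of PGRP-LA.

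PGRP-LE, the intracellular sensor of the Imd pathway, had one of the narrowest ranges, with 333, 324 and 381 in the mutant and 310.1, 326 and 369 in the control libraries. PGRP-LB, an amidase that degrades peptidoglycan and dampens Imd signalling, had 376, 489 and 418 against 268, 579 and 544, and was not called (log2 fold change -0.12 from the authors' deposited table). PGRP-SA, the circulating sensor upstream of Toll, had 780, 772 and 912.0 against 451, 762 and 505. Its groups did not overlap by a margin of 772 against 762, and it was not called (log2 fold change 0.52, adjusted p = 0.463 from the authors' deposited table). limma with a term for the deepest libraries gave an adjusted p of 0.0449, a setting in which 16.0% of all genes were called.

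PGRP-SB1, PGRP-SC2 and PGRP-SD, short secreted PGRPs, varied more like the effectors. PGRP-SB1, an amidase that is itself induced by infection, had 1014, 5126 and 6250.3 in the mutant libraries against 810.0, 7715 and 4282 in the control libraries (log2 fold change -0.05, adjusted p = 0.994 from the authors' deposited table). Its deepest library was lowest in both genotypes, as for DptB, and its means were nearly equal, at 4130 in the mutant and 4269 in the control. PGRP-SD had 108, 431 and 504 against 152, 638 and 333, and PGRP-SC2, an amidase expressed mainly in gut, had 15.4, 36.3 and 112 against 20.3, 175 and 41.8. PGRP-SB2 and PGRP-LD were at the limit of detection, with at most 5 reads in any library, and no difference was detectable at this depth. Within groups, 8 of the 14 PGRP and GNBP genes differed by less than 2-fold between libraries.

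GNBP3, the circulating sensor of fungal beta-glucan, had 3147, 3864 and 4678 in the mutant libraries against 1775, 2454 and 2917 in the control libraries. All mutant libraries exceeded all control libraries, and the gene was not called (log2 fold change 0.71, adjusted p = 0.185 from the authors' deposited table). With a term for the deepest libraries limma gave an adjusted p of 0.00238, and with those libraries left out 0.0302. These settings called 16.0% and 7.58% of all genes. GNBP1, the partner of PGRP-SA, had 518, 542 and 562 against 506, 563 and 508 (log2 fold change 0.04, adjusted p = 0.981 from the authors' deposited table). GNBP2, its neighbour on 3L, had 1329, 1498 and 1611 against 1241, 1773 and 1751 (log2 fold change -0.10, adjusted p = 0.958 from the authors' deposited table).

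**Figure D5:**
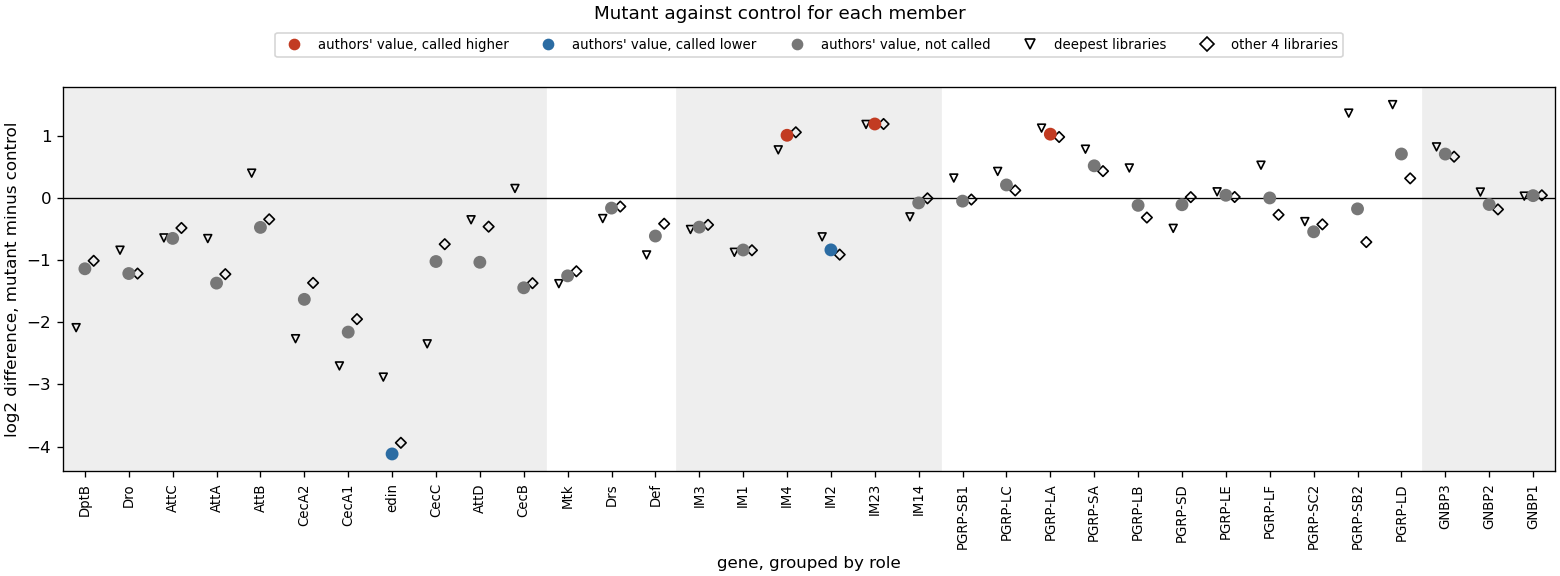
Log2 difference of mutant from control for each member, grouped by role, with the authors' value filled (red called higher, blue called lower, grey not called). Open symbols give the log2(normalized count + 1) difference between the deepest libraries of the groups and in the other 4 libraries. PGRP-LA, IM23 and IM4 lie above 0 and edin and IM2 below it in both sets of libraries, while the effector genes AttB and CecB lie on opposite sides of 0 in the 2 sets.

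Signalling genes between sensors and effectors were, with 1 exception among those tested, not called. Beside them, 4.46% of all tested genes were called in either direction, a share at which lists this short hold few calls. Of 11 tested genes of the intracellular Imd cascade 0 were higher and 1 was lower, Tab2, which encodes the binding partner of the kinase Tak1. Tab2 had 1176, 1036 and 1033 in the mutant libraries against 1405, 1673 and 1708 in the control libraries, without overlap (log2 fold change -0.56, adjusted p = 0.0447 from the authors' deposited table). limma on the recovered libraries did not call it (adjusted p = 0.227), nor with any 1 library left out (0.202 to 0.65), where only 23 to 75 of all genes were called. Rel, which encodes Relish, had 3762, 4576 and 3852 against 2628, 4952 and 3513 (log2 fold change 0.14), and imd had 580, 632 and 780 against 490, 580.4 and 588 (0.26) from the authors' deposited table. pirk, an induced inhibitor of the PGRP receptors, had 96.6, 240 and 168 against 123, 295 and 197, lowest in the deepest library of each group as the effectors were. None of the 9 tested negative regulators of Imd, pirk among them, was called.

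Of the Toll pathway, 0 of 9 tested extracellular genes and 0 of 11 intracellular genes were called, beside 4.46% of all tested genes. At that share few calls would fall in lists this short. The ligand gene spz had a log2 fold change of 0.15, the receptor gene Tl of 0.11, the inhibitor gene cact of 0.03 and the transcription factor genes Dif and dl of 0.32 and -0.17 from the authors' deposited table. cact, also a Toll target, ranged from 3002 to 3231 in the mutant libraries against 2962 to 3147 in the control libraries. Of 11 tested JAK-STAT and Turandot stress peptide genes and 5 tested lysozyme genes 0 were called. The Turandot gene TotA did not follow the effectors, with 4555, 1280 and 4309 in the mutant libraries against 4373, 11681 and 1338 in the control libraries. LysD had 1.03, 236 and 326 against 1.16, 12.1 and 0, with a log2 fold change of 5.41 that was not called (adjusted p = 0.168 from the authors' deposited table).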

How the data were processed

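RNA was extracted from adult heads with Trizol, libraries followed the Illumina protocol and were sequenced on an Illumina NovaSeq, per the labels' protocols. FastQC, HISAT2, featureCounts and DESeq, and build dm6 appear in the submitters' processing notes with neither role nor version, with strandedness and filters not given in the sources used here. The deposited table holds, per the file headers and its values, a mean signal per group (read counts divided by size factors, averaged), a log2 fold change (mutant over control), p-values and adjusted p-values, all by the authors. The adjusted p-values equal those of a Benjamini-Hochberg procedure on 11155 genes; the other 2386 were treated as not tested. Coordinates are those of the deposited table and are identical in Ensembl release BDGP6 for all 34 members.

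A test on counts of each sample was planned; since the table holds group means, the authors' calls are the main result. Each mean of at most 10000 was searched for whole reads in 3 libraries. Exactly 1 solution was found for 13193 of 13193 mutant and 13225 of 13225 control means, giving 13169 genes (97.3%) in all 6 libraries. On simulated means 100% were recovered. These were made and solved with the same fitted size factors, so they test whether a solution is unique and not whether the size factors are right. The reads of the libraries, in recovered genes, were 9194231, 7406261 and 6257409 in the mutant and 16462836, 9535336 and 8915003 in the control. limma 3.58.1 in R 4.3.3 (trend, robust) was run on log2(normalized count + 1) for genes whose mean reached 1. That scale understates changes of low genes. Alternatives were a term for the deepest libraries, these left out, each library left out, a pseudocount of 0.5, no filter and equal totals. The term groups the deepest mutant with the deepest control library by rank within each group alone, a grouping that no label supports. The 2 are not of like depth, and the deepest mutant library held fewer reads than the middle control library. With 3 libraries against 3, an exact permutation test of one gene cannot go below 0.1 and was not used. Named were called members, the 3 most abundant of each group, members spanning over 10-fold within a group, and fixed signalling genes; the remaining members were added so that every one is accounted for. Members and gene lists were chosen with earlier results of these data known.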

Additional observations from a re-analysis of the deposited data

How the results depend on the processing

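The authors' calls of 3 members higher and 2 lower came from a test that used all 6 libraries. limma on the recovered libraries called 1 higher (PGRP-LA) and 0 lower; at an unadjusted p under 0.05 it had 5 higher and 3 lower, where 1296 of 11596 genes passed. The counts were also 1 and 0 with a pseudocount of 0.5 and with no filter on low values, and 0 and 0 with equal totals (unadjusted, 4 and 3). A term for the deepest libraries gave 5 higher and 5 lower, adding GNBP3, PGRP-SA, IM1, IM3 and CecA1 to the 5, where 16.0% of all genes were called. Leaving those libraries out gave 4 higher and 4 lower, where 7.58% were. With each of the 6 libraries left out in turn, limma called from 0 to 0 members in either direction, with 3 to 5 higher and 1 to 6 lower at an unadjusted p under 0.05, and only 23 to 75 of all genes. The 5 called members kept their direction in all 12 alternatives, at log2 fold changes of 0.96 to 1.10 for PGRP-LA, 0.99 to 1.40 for IM23, 0.70 to 1.20 for IM4, -0.94 to -0.65 for IM2 and -4.83 to -2.66 for edin. The members' median ranged from -0.72 to 0.0621 with 1 library left out. The cause of these changes was not tested.

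Of members not called, the log2 fold change of PGRP-SB1 turned to 0.0932 in limma on all libraries, with the term, with the pseudocount (0.0933) and without the filter, and to 0.0712 with equal totals. That of PGRP-LF turned to -0.00139 in the same 4 settings, -0.0233 with equal totals and -0.27 with the deepest libraries left out. There PGRP-SD turned to 0.0164 and spz to -0.0287, and PGRP-SB2 turned to 0.0312 with the pseudocount. With 1 library left out, the range of the log2 fold change crossed 0 for DptB (-2.57 to 0.19), AttC (-1.57 to 0.56), AttB (-1.07 to 0.79), CecC (-2.05 to 0.0316) and AttD (-0.99 to 0.60). It also crossed 0 for PGRP-SB1 (-0.85 to 0.92), PGRP-LB (-0.40 to 0.15), PGRP-SD (-0.68 to 0.55), PGRP-LE (-0.0243 to 0.12), PGRP-LF (-0.16 to 0.15), PGRP-SC2 (-1.14 to 0.44) and PGRP-SB2 (-0.55 to 0.42). The same held for GNBP2 (-0.26 to 0.000804), IM14 (-0.29 to 0.14), Drs (-0.47 to 0.0519), Rel (-0.0432 to 0.41), Tl (-0.12 to 0.45) and pirk (-0.61 to 0.0577). No paired analysis was possible because the recovered libraries carry no replicate number. Genes with few reads, such as CecB, PGRP-SB2 and PGRP-LD, are limited by depth.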
